A study of Homo sapiens with 6 samples.

Results

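The genes described here are 10 genes of prostaglandin and leukotriene metabolism and signalling, chosen by gene name from the 58302 genes of the table. They are PLA2G4A, PTGS1, PTGS2, PTGES, PTGES2, PTGES3, PTGER4, HPGD, PTGR1 and LTA4H. All 10 names matched a row, and all 10 were among the 11945 genes tested, those with a mean of at least 1 FPKM over the libraries. FPKM are fragments per kilobase of gene length, here scaled by a size factor of each library. The library size it implies was 1.04 to 1.09 times the total reads in siSGK1 and 0.95 to 0.97 times in siControl. The cells were ME180, an epithelial line from a human cervical cancer, whose polyA RNA was sequenced 48 h after they received a small interfering RNA against the kinase SGK1 (siSGK1, 3 libraries) or a control one (siControl, 3 libraries). The 3 libraries of each group, numbered 2, 3 and 4, are labelled as biological repeats of a single cell line. The p-values therefore measure the spread between these cultures. In bulk RNA, fewer cells expressing a gene and less of its RNA per cell cannot be told apart.

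Prostaglandins and leukotrienes are short-range lipid signals made from arachidonic acid, which phospholipases release from membranes. Cyclooxygenases turn it into prostaglandin H, terminal synthases turn that into prostaglandin E and its relatives, and lipoxygenases open the separate leukotriene branch. Prostaglandin E acts through G protein-coupled receptors and is removed by uptake and oxidation. In epithelia it is known for roles in inflammation, growth and tumour biology.

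Of the 10 genes, 3 were higher and 4 were lower in siSGK1 than in siControl, and 3 were not called. The inducible cyclooxygenase PTGS2, the prostaglandin E receptor PTGER4 and the cytosolic E synthase PTGES3 rose. The constitutive cyclooxygenase PTGS1, the membrane E synthases PTGES and PTGES2 and the prostaglandin-degrading enzyme HPGD fell. Genes were called at an adjusted p below 0.05 in a limma test of log2(FPKM + 0.5), with Benjamini-Hochberg adjustment over all 11945 genes. Among these, 40.6% were called, 17.9% higher and 22.7% lower. The groups did not overlap for 7 of the 10 genes, against 53.4% of all tested genes. At least 1.5-fold on the log2(FPKM + 0.5) scale, a size that 6.09% of tested genes reached with a call, were PTGS1, PTGS2, PTGES and HPGD. The median log2 change of the 10 genes was −0.02, against −0.006 for all tested genes, and the median size of the change was 0.48 against 0.16. Higher genes made up 44.2% of all called genes in the values as deposited, 51.2% after quantile normalization, 73.6% with scaling by total reads and 82.8% with TPM scaling. The median of all genes moved to 0.12 with total reads and to 0.19 with TPM, so every direction below is relative to the typical gene of the deposited scaling. The 7 called genes kept direction and call under each of these scalings.

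**Figure D1:**
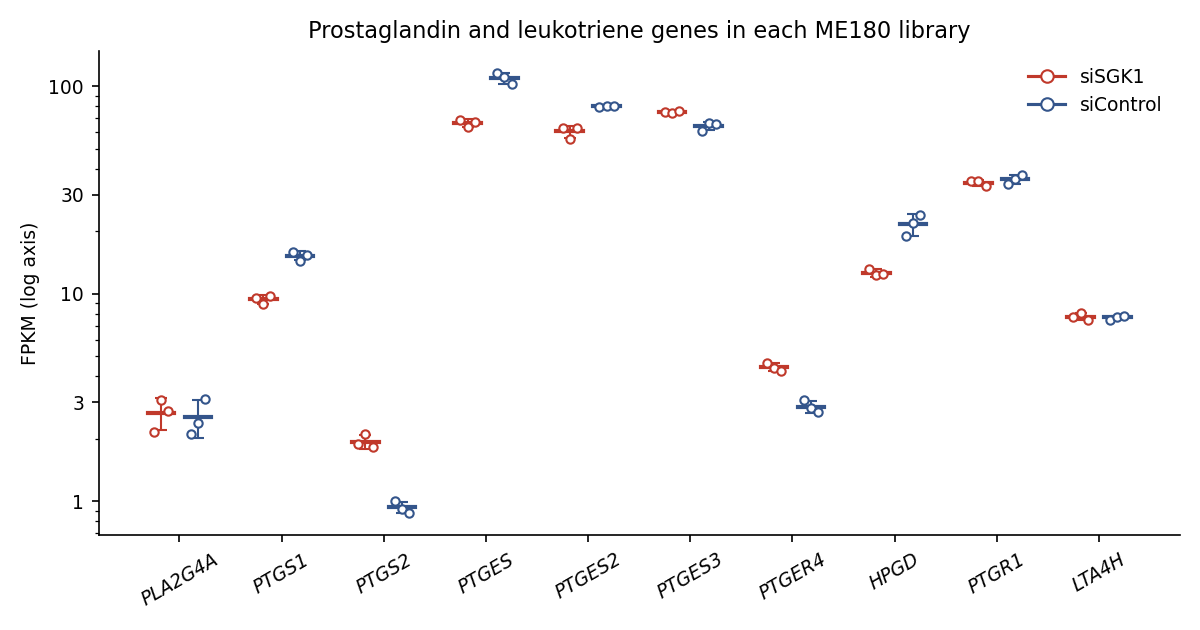
Levels of the 10 genes in each library, in FPKM on a log axis, with siSGK1 left of siControl. Points are libraries, short horizontal lines the group means and error bars the SD (n = 3 each). The groups separate for PTGS1, PTGS2, PTGES, PTGES2, PTGES3, PTGER4 and HPGD and overlap for PLA2G4A, PTGR1 and LTA4H.

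**Figure D2:**
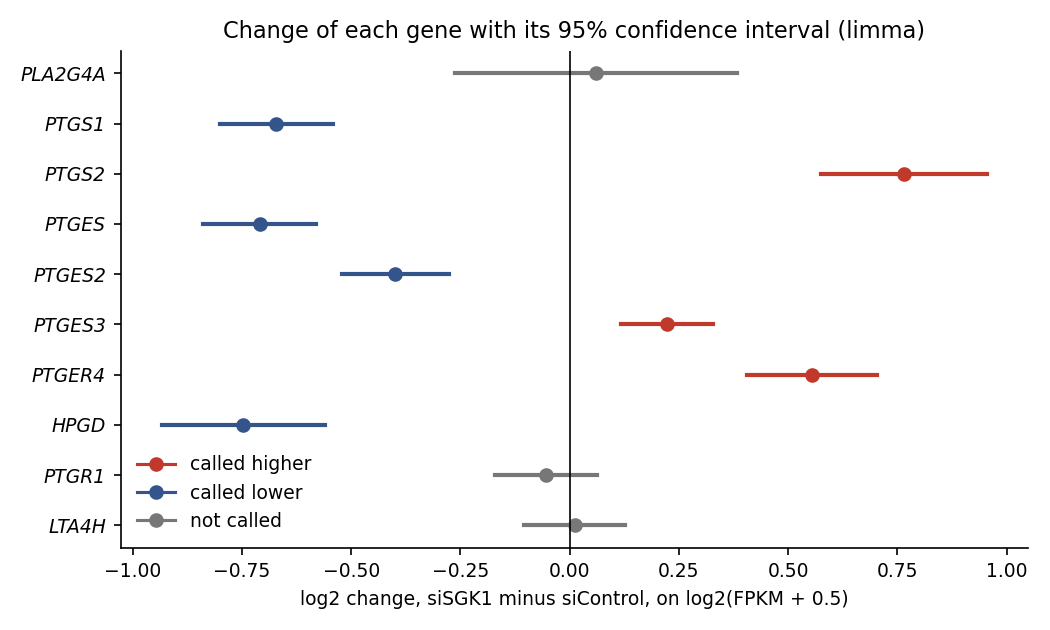
Log2 change of each gene (siSGK1 minus siControl, on the log2(FPKM + 0.5) scale) with its 95% confidence interval from limma. The intervals of PLA2G4A, PTGR1 and LTA4H include 0, and the other 7 do not.

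PLA2G4A encodes cytosolic phospholipase A2 alpha, the enzyme that releases arachidonic acid from membrane phospholipids. It lies on chromosome 1 (186828953 to 186988981, plus strand) in the GRCh38 coordinates of the table. It had 2.16, 3.09 and 2.73 FPKM in siSGK1 replicates 2, 3 and 4, against 2.11, 2.39 and 3.12 FPKM in siControl. The highest library was a control and so was the lowest. Behind these values stood 183 to 294 reads in siSGK1 and 159 to 242 reads in siControl. The log2 change was 0.06, with a 95% confidence interval from −0.26 to 0.38 (limma adjusted p = 0.76). This was the widest interval of the 10 genes, and it does not exclude a change of the size seen for PTGES3.

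The cyclooxygenases moved in opposite directions. PTGS1 (chromosome 9, 122370530 to 122395703, plus strand) encodes the isoform regarded as constitutive, and PTGS2 (chromosome 1, 186671791 to 186680427, minus strand) the inducible one. PTGS1 had 9.54, 8.90 and 9.78 FPKM in siSGK1, against 16.0, 14.4 and 15.4 FPKM in siControl. Every siSGK1 library lay below every control, and the mean was 61.5% of the control mean (9.40 ± 0.46 FPKM in siSGK1 and 15.3 ± 0.77 FPKM in siControl, SD, n = 3 each). The log2 change of PTGS1 was −0.67 (SE 0.06, limma adjusted p = 6.22e-05), and 2.76% of tested genes fell further. PTGS2 had 1.88, 2.11 and 1.83 FPKM in siSGK1, against 0.998, 0.922 and 0.880 FPKM in siControl. It was the least abundant of the 10 genes in both groups, and its lowest siSGK1 library was above its highest control. The reads were 291, 368 and 353 in siSGK1, against 138, 126 and 125 in siControl. The mean level of PTGS2 was 2.08-fold higher (1.94 ± 0.15 FPKM in siSGK1 and 0.933 ± 0.060 FPKM in siControl, SD, n = 3 each). Its log2 change of 0.77 (SE 0.08, limma adjusted p = 2.19e-04), which understates the fold of a gene this low, was exceeded by 118 tested genes, or 0.988%.

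PTGS1 transcripts outnumbered those of PTGS2 per unit of gene length in every library, but by a smaller margin in siSGK1. The ratio of PTGS1 to PTGS2 FPKM was 5.08, 4.22 and 5.35 in siSGK1, against 16.0, 15.7 and 17.5 in siControl. PTGS2 made up 17.1% ± 1.8 of the summed FPKM of both genes in siSGK1 and 5.76% ± 0.32 in siControl (SD, n = 3 each). Their sum was lower, at 11.3 ± 0.31 FPKM in siSGK1 and 16.2 ± 0.80 FPKM in siControl. The groups did not overlap for the ratio, the share or the sum. For each of them p = 0.1 in a two-sided exact permutation test, and groups of 3 allow no smaller p (adjusted p = 0.129 over the 9 ratios, shares and sums computed). The ratio and the share had to separate, because PTGS1 was lower and PTGS2 higher in every siSGK1 library than in every control. The share also restates the ratio, so their p-values add nothing to the tests of the genes.

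The promoters of both cyclooxygenases are shown because these genes moved apart. The sequences are the 250 bases before the RefSeq start on GRCh38.p14 (for PTGS1, the one of its 2 starts that is nearest the start in the table), read 5′ to 3′ on the gene's strand, at chr1:186680424-186680673 (minus strand) for PTGS2 and chr9:122370283-122370532 (plus strand) for PTGS1. Capitals mark matches to searched motifs.
PTGS2 promoter: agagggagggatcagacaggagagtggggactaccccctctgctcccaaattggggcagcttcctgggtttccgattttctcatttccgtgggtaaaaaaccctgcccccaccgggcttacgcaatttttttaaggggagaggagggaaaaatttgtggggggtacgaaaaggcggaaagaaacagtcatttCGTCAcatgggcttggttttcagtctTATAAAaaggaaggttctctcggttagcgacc
PTGS1 promoter: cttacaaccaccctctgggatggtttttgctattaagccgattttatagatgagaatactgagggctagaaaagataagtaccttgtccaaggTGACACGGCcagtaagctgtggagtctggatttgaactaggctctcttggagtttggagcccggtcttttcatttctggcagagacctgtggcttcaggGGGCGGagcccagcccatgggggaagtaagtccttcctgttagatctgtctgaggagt
The motifs searched were TATAAA on the gene's strand, and, on both strands, TGACG (a short form of the cyclic AMP response element), GGGCGG (a GC box), TGANTCA (an AP-1 site) and TGACNNNGC (the core of an antioxidant response element). They occur in 6.80%, 21.2%, 42.6%, 6.57% and 10.9% of 35116 RefSeq promoter windows of this length, in the order given. In the PTGS2 window TATAAA begins 32 bases before the start, and the reverse complement of TGACG begins 58 bases before it. No GC box was matched in it. The PTGS1 window has a GC box 58 bases before the start and TGACNNNGC 157 bases before it, and no TATAAA. The window of the other PTGS1 start, at position 122375302, has a GC box 202 bases before it and neither TGACNNNGC nor TATAAA. PTGS2 was the only one of the 10 genes with TATAAA in any of its windows, and none matched TGANTCA. A match describes the letters and is not a measured binding site.

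The E synthases also divided. PTGES (chromosome 9, 129738331 to 129753047, minus strand) encodes the inducible microsomal synthase that is commonly coupled to PTGS2. PTGES2 (chromosome 9, 128120693 to 128128462, minus strand) encodes another membrane-associated synthase. PTGES3 (chromosome 12, 56663341 to 56688408, minus strand) encodes p23, a co-chaperone of HSP90 that was also described as a cytosolic synthase. PTGES had 69.2, 63.7 and 67.0 FPKM in siSGK1, against 115.7, 110.4 and 102.1 FPKM in siControl. The groups did not overlap, and the mean was 60.9% of the control mean (66.6 ± 2.8 FPKM in siSGK1 and 109.4 ± 6.8 FPKM in siControl, SD, n = 3 each). The log2 change of PTGES was −0.71 (SE 0.06, limma adjusted p = 4.84e-05). PTGES thus fell while PTGS2 rose, and its ratio to PTGS1 was 7.09 ± 0.21 in siSGK1 and 7.17 ± 0.52 in siControl, with overlapping groups (SD, n = 3 each; exact permutation p = 0.9).

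PTGES2 had 62.7, 56.0 and 63.3 FPKM in siSGK1, against 79.5, 80.3 and 80.3 FPKM in siControl. The controls lay close together, with a coefficient of variation of 0.570%, and the siSGK1 libraries spread more, at 6.66%. Its log2 change was −0.40 (SE 0.05, limma adjusted p = 6.29e-04). PTGES3 had 74.9, 74.6 and 76.4 FPKM in siSGK1, against 61.1, 66.7 and 65.8 FPKM in siControl. The groups were separate but close, with a ratio of means of 1.17 and a log2 change of 0.22 (SE 0.05, limma adjusted p = 0.00565). The table lists 5 PTGES3 pseudogenes, and PTGES3P1 held 113 to 141 reads in siSGK1 and 74 to 113 reads in siControl, against 7491 to 9512 and 5449 to 6033 reads of PTGES3. The sources used here do not say how reads that map to several places were counted, so the PTGES3 value is uncertain to that extent.

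Summed over the 3 synthases, 202.6 ± 7.2 FPKM were measured in siSGK1 and 254.0 ± 5.0 FPKM in siControl (SD, n = 3 each). PTGES supplied 32.9% ± 0.52 of the sum in siSGK1 and 43.1% ± 2.0 in siControl. PTGES3 supplied 37.2% ± 1.1 in siSGK1 and 25.4% ± 1.4 in siControl. By mean FPKM, PTGES3 was the most abundant of the 10 genes in siSGK1, ahead of PTGES and PTGES2, whereas in siControl PTGES led, followed by PTGES2 and PTGES3. No neighbours in this part of either order overlapped across libraries. For the sum and both shares the groups were separate (exact permutation p = 0.1, adjusted p = 0.129 over the 9 quantities). Separation of the PTGES3 share was fixed by the separate groups of the 3 genes, so its p-value adds nothing to their tests.

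**Figure D3:**
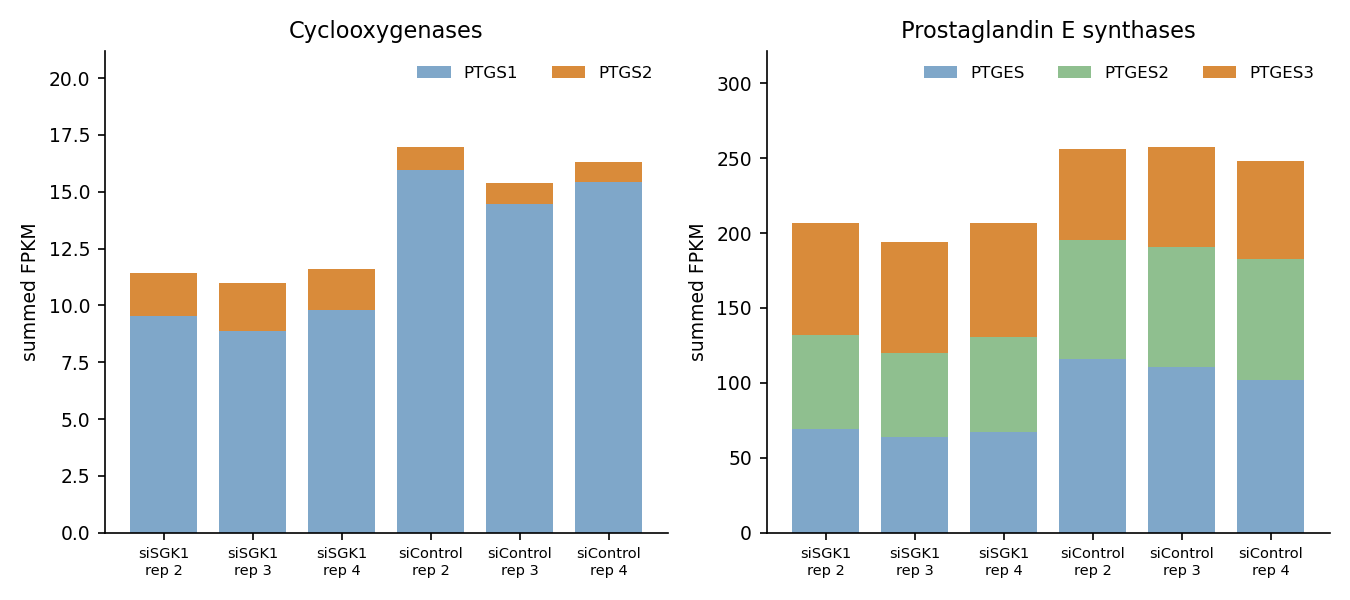
Stacked FPKM of the cyclooxygenases PTGS1 and PTGS2 (left) and of the E synthases PTGES, PTGES2 and PTGES3 (right), with one bar for each siSGK1 and each siControl library. Both sums are lower in siSGK1, with a larger PTGS2 share of the cyclooxygenases and a larger PTGES3 share of the synthases.

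The PTGES promoter is shown beside that of PTGS2 above because the enzymes act in sequence and their transcripts moved in opposite directions. It spans chr9:129753043-129753292 (minus strand, GRCh38.p14).
PTGES promoter: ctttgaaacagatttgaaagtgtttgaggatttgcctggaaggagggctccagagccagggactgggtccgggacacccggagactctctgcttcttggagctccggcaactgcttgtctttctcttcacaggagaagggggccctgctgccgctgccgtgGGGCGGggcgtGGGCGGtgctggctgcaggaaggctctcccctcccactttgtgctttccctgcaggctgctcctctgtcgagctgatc
It holds GC boxes 89 and 78 bases before the start, in capitals, and none of the other searched motifs. PTGES and PTGES2, which both fell, lie 1609868 bases apart on chromosome 9. PTGS2 and PLA2G4A, which differed in call, lie 148525 bases apart on chromosome 1. Of the other genes on chromosome 9, PTGS1 fell and PTGR1 was not called.

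PTGER4, the receptor EP4, which couples prostaglandin E to cyclic AMP through Gs, was higher in siSGK1. It lies on chromosome 5 (40679498 to 40693735, plus strand). It had 4.64, 4.41 and 4.25 FPKM in siSGK1, against 3.07, 2.82 and 2.69 FPKM in siControl. The groups did not overlap, and the ratio of means was 1.55 (4.43 ± 0.20 FPKM in siSGK1 and 2.86 ± 0.19 FPKM in siControl, SD, n = 3 each). The reads were 541, 578 and 617 in siSGK1, against 319, 290 and 287 in siControl. The log2 change of PTGER4 was 0.56 (SE 0.07, limma adjusted p = 3.21e-04), and 345 tested genes, or 2.89%, rose further. The other prostanoid receptors PTGER1, PTGER2, PTGER3, PTGFR, PTGIR, PTGDR, PTGDR2 and TBXA2R lay under the level filter, which left PTGER4 as the only prostanoid receptor with a test. Its promoter, at chr5:40679665-40679914 (plus strand, GRCh38.p14), is printed for comparison with that of PTGS2, which also rose. The RefSeq start of PTGER4 lies 417 bases from the gene start given above, so this window falls within that gene span.
PTGER4 promoter: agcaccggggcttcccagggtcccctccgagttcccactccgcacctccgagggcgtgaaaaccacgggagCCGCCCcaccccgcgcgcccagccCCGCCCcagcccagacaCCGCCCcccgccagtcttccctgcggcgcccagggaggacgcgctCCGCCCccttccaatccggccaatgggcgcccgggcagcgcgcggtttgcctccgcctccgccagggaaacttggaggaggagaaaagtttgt
It has 4 GC boxes on the opposite strand, in capitals, and no TATAAA or TGACG, so the PTGS2 and PTGER4 windows shared none of the searched motifs.

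HPGD, the NAD-dependent hydroxyprostaglandin dehydrogenase that begins the inactivation of prostaglandin E, was lower in siSGK1. It lies on chromosome 4 (174490177 to 174523154, minus strand). It had 13.2, 12.3 and 12.4 FPKM in siSGK1, against 18.9, 21.9 and 24.1 FPKM in siControl. The controls spread more widely than the siSGK1 libraries (coefficient of variation 12.0% against 4.15% in siSGK1), without overlap. The mean fell to 58.4% of the control mean (12.6 ± 0.52 FPKM in siSGK1 and 21.6 ± 2.6 FPKM in siControl, SD, n = 3 each; log2 change −0.75, SE 0.08, limma adjusted p = 2.28e-04). Among the 10 genes this was the largest fall, exceeded by 248 tested genes, or 2.08%. The ratio of PTGES to HPGD was 5.28 ± 0.12 in siSGK1 and 5.13 ± 0.94 in siControl, with overlapping groups (SD, n = 3 each; exact permutation p = 0.7). Transcripts of the synthase PTGES and of the degrading enzyme were thus both lower, and no difference in their ratio was detected with this spread.

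PTGR1 (chromosome 9, 111549722 to 111599855, minus strand) encodes a reductase that acts after HPGD on prostaglandins and that also oxidizes leukotriene B4. It had 35.0, 35.0 and 33.0 FPKM in siSGK1, against 33.8, 35.9 and 37.3 FPKM in siControl. The groups overlapped, and the log2 change was −0.05 (95% confidence interval −0.17 to 0.06, limma adjusted p = 0.42). Its direction depended on the scaling, with a log2 change of 0.15 under TPM, 0.08 with total reads and 0.01 after quantile normalization, none of them called. Because HPGD fell, the ratio of PTGR1 to HPGD was 2.72 ± 0.12 in siSGK1 and 1.66 ± 0.12 in siControl (SD, n = 3 each; exact permutation p = 0.1, adjusted p = 0.129 over the 9 quantities).

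LTA4H (chromosome 12, 96000828 to 96043520, minus strand), the hydrolase that makes leukotriene B4 from leukotriene A4, had 7.76, 8.08 and 7.44 FPKM in siSGK1, against 7.51, 7.77 and 7.79 FPKM in siControl. The lowest and the highest library both belonged to siSGK1. The log2 change was 0.01 (95% confidence interval −0.10 to 0.13, limma adjusted p = 0.88). Under TPM scaling it was 0.21 and called (adjusted p = 0.022), close to the median gene's 0.19 in that scaling. Exons of LTA4H share 121 bases with AC007298.1 on the opposite strand, a gene at 0.0097 FPKM, and no other of the 10 genes shared exon bases with another gene.

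The genes that rose had more AU-rich pentamers in their 3′ UTRs than the genes that fell, a comparison made after the values were seen. ATTTA is the core of AU-rich elements, which are known to shorten the life of many inflammatory transcripts, PTGS2 among them. In the longest 3′ UTR annotated by GENCODE 29, PTGS2 holds 22 copies in 2562 bases, PTGER4 9 in 1357 and PTGES3 6 in 1136. Of the genes that fell, HPGD holds 5 in 1907 bases, PTGS1 3 in 3159, PTGES 1 in 1280 and PTGES2 0 in 452. Of the genes not called, PLA2G4A holds 4 in 473 bases, PTGR1 3 in 154 and LTA4H 0 in 236. Per kilobase, the genes that rose held 8.59 (PTGS2), 6.63 (PTGER4) and 5.28 (PTGES3), and those that fell at most 2.62 (HPGD). The genes not called ranged from 0 in LTA4H through 8.46 in PLA2G4A to 19.5 in PTGR1, so density did not set the genes that rose apart from them. Only 2.02% of 10272 tested protein-coding genes hold as many copies as PTGS2, but 15.1% hold as many as PTGER4 and 25.5% as many as PTGES3. The median gene holds 2. The richest stretches of 30 bases in PTGS2 and PTGER4 are printed with ATTTA in capitals, 5′ to 3′.
PTGS2 3′ UTR: aagtctaatgatcatATTTATTTATTTAta
PTGER4 3′ UTR: tattgttgtacatacgATTTAaggtATTTA
The PTGS2 stretch is the first 30 bases of its 3′ UTR, and that of PTGER4 begins at base 438. Over the 10272 tested protein-coding genes, those with a 3′ UTR of at least 50 bases, a division at 6 copies went with a small shift. The cut of 6 is the PTGES3 count, the lowest among the genes that rose. The 2623 genes with 6 or more copies had a median log2 change of 0.05, and the 7649 with fewer had −0.03. Of those with 6 or more, 20.5% were called higher and 14.6% lower, and of those with fewer, 17.1% and 26.7%. Their 3′ UTRs also differ in length (median 3366 and 882 bases), and the part of length or base composition in this was not tested.

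**Figure D4:**
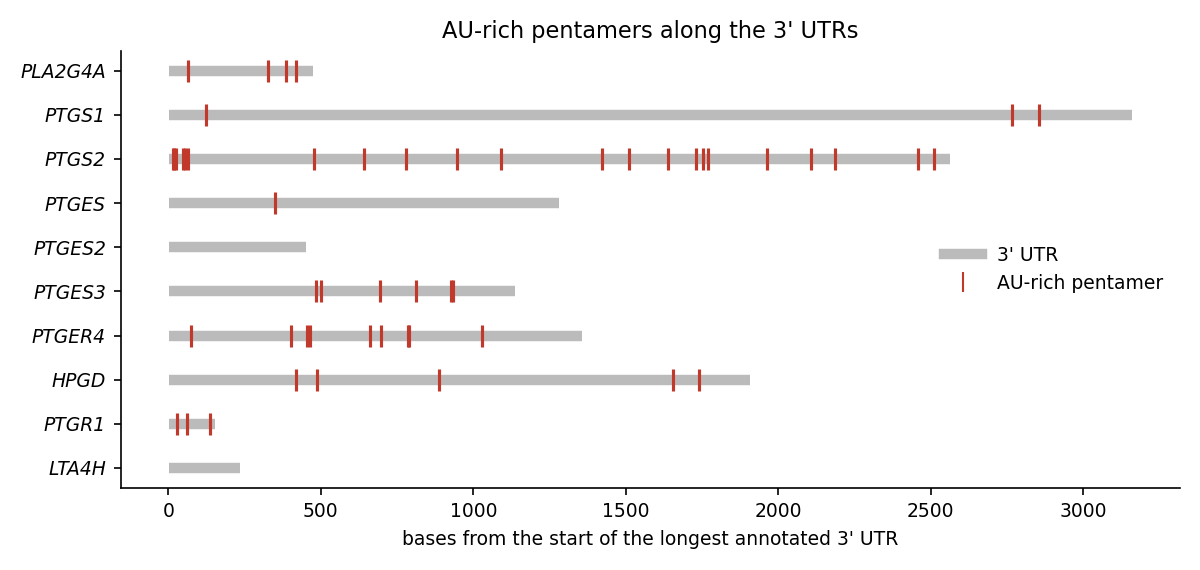
Positions of ATTTA, the AU-rich pentamer, as red ticks along the longest annotated 3′ UTR of each gene, drawn as a grey bar, in bases from the start of the UTR. PTGS2 carries 22 copies, PTGER4 9 and PTGES3 6, and the 4 genes that fell carry 0 to 5.

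Short words in 3′ UTRs were also examined, since siRNA seeds can match them. Ranked over 15630 words of 7 bases by their association with the log2 change across tested genes, CTATGCA stood at the low end, followed by the word TATGCAA and, next, by the word ATGCAAA. At the high end stood GGAGAAA, followed by the word TCGGAGA and, next, by the word CGGAGAA. None of the 10 genes holds the first or the next of the low-end words, or the word TCGGAGA. The low-end word ATGCAAA was found in 16.5% of genes, with an adjusted difference of −0.06 log2 units. Both the ranking and this difference were adjusted for 3′ UTR length, GC content and expression level. Without adjustment the median log2 change was −0.0044 in genes with ATGCAAA and −0.0095 in genes without, so the low side appeared only after adjustment. ATGCAAA occurs once in HPGD, which fell, at base 913 of its 3′ UTR, and once in PTGS2, which rose, at base 1549. PTGS2 alone among the 10 genes holds CGGAGAA, once, at base 127 of its 3′ UTR. That word was found in 2.45% of genes, with an adjusted difference of 0.10 log2 units. PTGS2 also holds GGAGAAA 2 times, at base 128, where it overlaps CGGAGAA, and at base 2228.
PTGS2 3′ UTR with CGGAGAA: tactcctgttgCGGAGAAaggagtcatac
HPGD 3′ UTR with ATGCAAA: acaagaaaaaaATGCAAAtgtaatatttt
The sources used here give no siRNA sequences, and the part of these words in the PTGS2 and HPGD values was not tested. Of the 7 called genes, the other 5 hold none of these 6 words.

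In the values as deposited, other genes of eicosanoid metabolism mostly fell where they could be tested. Of 79 such genes in the table, sorted into 6 lists by branch, 33 passed the level filter: 4 rose, 21 fell and 8 were not called, with a median log2 change of −0.30. Of all tested genes 17.9% rose and 22.7% fell, with a median of −0.006. Over the alternative settings described below, 15 to 22 of the other eicosanoid genes were called lower and 2 to 8 higher. Called at 1.5-fold or more were 8 of the 33, against 6.09% of all tested genes. Of the 46 genes under the filter, 6 had no reads. Calls in both directions occurred for arachidonate release and supply (2 higher and 5 lower of 12 tested) and for prostanoid transport and breakdown (2 higher and 1 lower of 4). In the other lists nothing rose: 3 of 3 other prostanoid synthases, 6 of 8 leukotriene genes, 5 of 5 genes of other lipoxygenases and the epoxide branch, and 1 of 1 in the receptor list fell.

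On the supply side PLA2G16, a phospholipase, averaged 13.3 ± 0.47 FPKM in siSGK1 and 21.0 ± 0.17 FPKM in siControl (log2 change −0.64, limma adjusted p = 2.83e-05). MGLL, which frees arachidonic acid from an endocannabinoid monoacylglycerol, averaged 9.09 ± 0.54 FPKM in siSGK1 and 13.4 ± 0.16 FPKM in siControl (log2 change −0.54). The reductases AKR1B1 and FAM213B, with prostaglandin F synthase activity, also fell, with log2 changes of −0.56 and −0.59. AKR1B1 averaged 32.9 ± 2.1 FPKM in siSGK1 and 48.9 ± 1.4 FPKM in siControl. The exons of FAM213B overlap MMEL1 on the opposite strand, which had almost no reads. PTGFRN, a membrane protein named as a negative regulator of the prostaglandin F receptor, averaged 12.3 ± 0.69 FPKM in siSGK1 and 17.5 ± 0.51 FPKM in siControl (log2 change −0.49).

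The furthest falls among the tested genes of these lists were those of CYP4F3 and ALOX15B. CYP4F3, an omega-hydroxylase that inactivates leukotriene B4, had 0.598, 0.547 and 0.475 FPKM in siSGK1, against 1.73, 1.60 and 1.98 FPKM in siControl (log2 change −1.12, limma adjusted p = 7.63e-05). Close paralogs of CYP4F3 may share its reads. ALOX15B, a lipoxygenase of epithelia, averaged 12.7 ± 1.2 FPKM in siSGK1 and 23.0 ± 0.40 FPKM in siControl (log2 change −0.84). ABCC1, which exports leukotriene C4, fell by 0.54 on the log2 scale, and the cytochrome P450 CYP2S1 by 0.63. Transcripts of the lipoxygenase ALOX5, which starts the leukotriene branch, and of its activating protein ALOX5AP were under the filter. ALOX5, whose enzyme makes the substrate of LTA4H, averaged 0.69 FPKM in siSGK1 and 0.85 FPKM in siControl. Enzyme levels were not measured.

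Genes that rose in these lists included the reductases PTGR2 and ZADH2, which act on keto prostaglandins. PTGR2 averaged 1.78 ± 0.25 FPKM in siSGK1 and 1.29 ± 0.18 FPKM in siControl (log2 change 0.35, limma adjusted p = 0.031). ZADH2 averaged 2.04 ± 0.13 FPKM in siSGK1 and 1.61 ± 0.11 FPKM in siControl (log2 change 0.27, limma adjusted p = 0.024). Each lost its call when any of 4 of the 6 libraries was left out, with adjusted p up to 0.095 for PTGR2 and 0.088 for ZADH2. Both calls were also lost with no level filter (adjusted p = 0.12 and 0.074). For PTGR2 these were siSGK1 replicates 3 and 4 and siControl replicates 2 and 3, and for ZADH2 siSGK1 replicates 2 and 4 and siControl replicates 2 and 3. The other genes of these lists that rose, named after their values were seen, were the supply genes PLA2G12A, a secreted phospholipase, and ACSL4, which couples arachidonic acid to coenzyme A, with log2 changes of 0.70 and 0.51. The 1 transport gene that fell, also named after its values were seen, was SLCO2A1, the prostaglandin uptake transporter (log2 change −0.28, limma adjusted p = 0.047), whose call was lost under 9 of 15 alternatives. Exons of PTGR2 also overlap ZNF410 (mean 0.118 FPKM) and unnamed transcripts (0.0029 FPKM or less), so the PTGR2 value is uncertain to that extent.

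**Figure D5:**
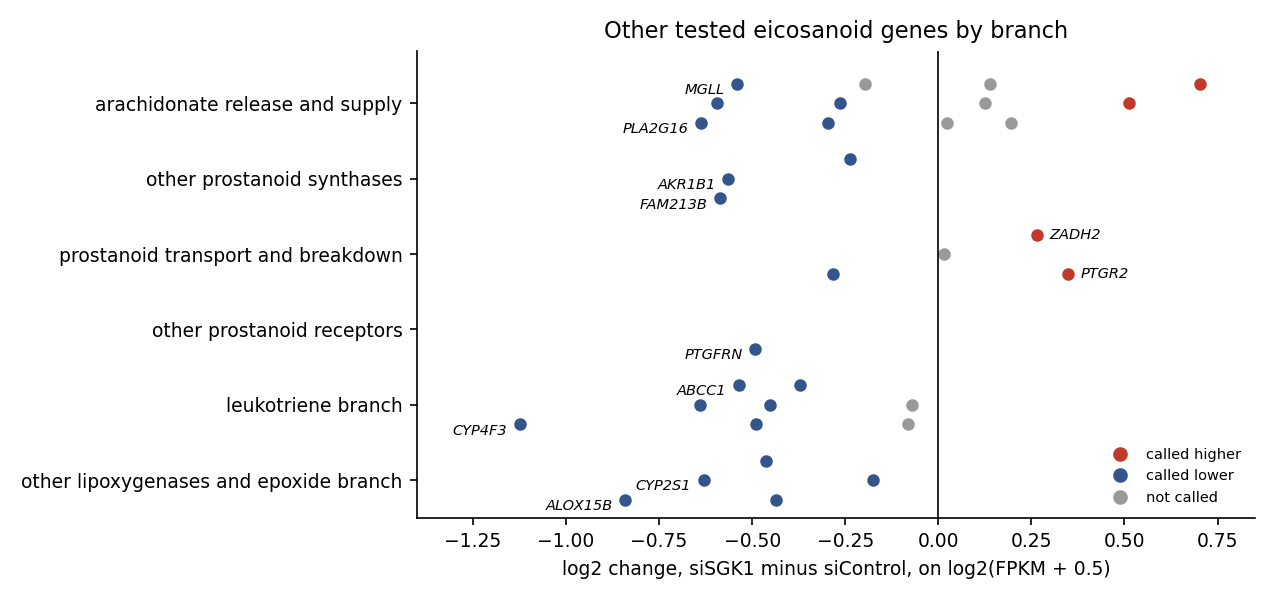
Log2 change of the 33 other tested eicosanoid genes (siSGK1 minus siControl), one row of points per list, coloured by call, with the genes described by name labelled. Most points lie left of 0, and CYP4F3 lies furthest left at −1.12.

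SGK1, the siRNA's target, was below every control in each siSGK1 library. It had 1.58, 1.70 and 1.81 FPKM in siSGK1, against 3.91, 4.27 and 4.17 FPKM in siControl (log2 change −1.07, limma adjusted p = 1.88e-05; exact permutation p = 0.1). The libraries held 28405647 to 35242643 reads in siSGK1 and 27262794 to 27874948 in siControl, so the 10 genes rested on 125 to 9512 reads per library. Epithelial markers summed to 5011 to 5822 FPKM in siSGK1 and 7090 to 7534 FPKM in siControl, led by KRT5, with 3 of 8 lower and 0 higher, and their part in the changes of the 10 genes was not tested. Leukocyte markers summed to at most 0.364 FPKM in siSGK1 and 0.276 FPKM in siControl, with 0 of 8 tested. Endothelial markers summed to 0.829 to 0.990 FPKM in siSGK1 and 1.47 to 1.78 FPKM in siControl, with PECAM1 and TIE1 at 0. Of 8 fibroblast markers 1, COL1A1, was tested, and their sums were 4.87 to 5.74 FPKM in siSGK1 and 4.72 to 5.26 FPKM in siControl.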

How the data were processed

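PolyA RNA libraries of ME180 cells were prepared with TRIzol and the NEBNext Ultra kit, per the labels' protocols. The submitters' processing notes list HISAT2 2.0.5, featureCounts 1.5.0-p3 and bcl2fastq 2.19, and the build hg19. The table's coordinates are instead those of GRCh38: 56588 of 57980 shared identifiers (97.6%) match GENCODE 29. The sources used here do not give the strand setting or the treatment of multi-mapped reads. The authors deposited FPKM per gene and library. Deposited FPKM times gene length were whole multiples of a single step (within 0.001) for 100% of values above 0, which gave reads per library and showed that the FPKM already carry a scaling by size factors.

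The test was limma 3.58.1 (R 4.3.3) on log2(FPKM + 0.5) (empirical Bayes with intensity trend, two-sided, siSGK1 against siControl), over the 11945 genes with mean FPKM of at least 1. Fold changes on this scale understate low genes. Ratios were compared by exact permutation. Alternatives were other pseudocounts, filters and scalings, voom on the recovered reads, a fit without the trend, the replicate block and leaving out each library. The limma test was first tried on simulated data. Promoters came from RefSeq (GRCh38.p14), all 10 genes matched, and 3′ UTRs from GENCODE 29. Motif and word searches used Python 3.11.15 with numpy 2.4.6 and pandas 2.3.3.

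The 10 genes, the other lists, the words and the marker lists were chosen with earlier results of these data known. Named genes are the 10 members, SGK1 and, of each other list, the 2 tested genes with the smallest p. PLA2G12A, ACSL4, SLCO2A1, genes named as lying under the level filter, and the AU-rich comparison, were chosen after values were seen.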

Additional observations from a re-analysis of the deposited data

How the results depend on the processing

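The 7 called genes kept their direction and their call in 110 of 110 values over 16 alternatives, with limma adjusted p up to 0.026. PTGR1 turned sign with TPM scaling (0.15), total-read scaling (0.084) and quantile normalization (0.014). LTA4H was called with TPM scaling (log2 change 0.21, adjusted p = 0.022). With 1 library left out, the log2 change ranged from −0.043 to 0.19 for PLA2G4A and from −0.016 to 0.040 for LTA4H, and both were negative without siSGK1 replicate 3 (−0.036 and −0.016) or without siControl replicate 2 (−0.043 and −0.005). Against 2143 genes higher and 2709 lower as deposited, 5645 were higher and 1171 lower with TPM scaling, 4309 and 1546 with total reads, and 1282 higher with a filter at a mean of 5 FPKM. At that filter 1 of the 10 genes was called higher, because PTGS2 and PTGER4 were no longer tested. Of the other eicosanoid genes, 4 of which were called higher as deposited, 2 were with no filter, 2 with the filter at 5 FPKM, 8 with TPM, 7 with total reads and 2 to 5 with 1 library left out. Called lower were 21 of them as deposited and 15 to 22 over the alternatives. Of the 25 called other eicosanoid genes, 17 kept their call under all alternatives in which they were tested. The causes were not tested, apart from the filter. Depth limits PTGS2 and PLA2G4A most, at 125 to 368 reads per library.

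With the replicate block, 2011 genes were higher and 2549 lower, and 3 and 4 of the 10 genes kept these calls. Deviations of same-numbered libraries correlated at 0.12, 0.01 and −0.10, and those of differently numbered ones at −0.16 to 0.15. No pairing by number was detected, but so few libraries cannot exclude it.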
